A study of Mus musculus with 4 samples.

Results

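The genes described here encode the machinery by which cells display peptides on MHC class I molecules. They are 10 of the 29224 genes in the deposited tables, chosen by name: H2-D1, H2-K1 and H2-T23 (class I heavy chains), B2m (the light chain), Tap1, Tap2 and Tapbp (peptide transport and loading), Psmb8 and Psmb9 (catalytic subunits of the immunoproteasome) and Nlrc5 (a transactivator of class I genes). The choice was by gene name and function, with no threshold on a value, although earlier results of these data were known.

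RNA was sequenced from astrocytes of the cerebral cortex of mice at postnatal day 5 (P5), from 2 groups, Ezh2 f/f and Ezh2 cKO, with 2 libraries each. EZH2 is the catalytic subunit of Polycomb repressive complex 2, which methylates histone H3 at lysine 27, a mark of silenced genes. Both groups carried loxP-flanked Ezh2 alleles, and the Ezh2 cKO mice also carried a Cre recombinase driven by Aldh1l1, a gene of the astrocyte lineage. Cells were captured on magnetic beads with an antibody to GLAST (ACSA-1), so that the capture antigen and the Cre driver are both astrocyte genes but the beads do not select recombined cells. The sources used here do not say how many animals made a library, nor give the strain of each library, while mice of more than 1 strain were used in the study; MHC class I genes differ between strains. The p-values therefore measure only the spread between these libraries. Library totals were 16273308 to 17522152 counts, and 3 counts corresponded to 0.171 to 0.184 CPM (counts scaled to the library total).

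Ezh2, the targeted gene, had 434 and 327 counts in Ezh2 f/f against 211 and 164 in Ezh2 cKO. Its log2 fold change, Ezh2 cKO over Ezh2 f/f, was -1.11 (standard error 0.16, edgeR adjusted p = 3.26e-05), so the transcript was lower but still present in Ezh2 cKO. The comparison moved a large part of the transcriptome: 68.4% of the 16793 genes tested were called at an adjusted p under 0.05 in edgeR, 34.7% as higher and 33.6% as lower in Ezh2 cKO, and the median log2 fold change of all tested genes was 0.02. A call at a change of at least 2-fold was made for 19.0% of tested genes as higher and 14.0% as lower. The CPM of the groups did not overlap for 84.3% of tested genes.

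The astrocyte label was checked on 12 markers. Of these, 10 were called higher in Ezh2 cKO and 0 lower. The shares of all tested genes, 34.7% and 33.6%, stand beside this and every marker list below. Aldh1l1 and Sox9 were not called. Slc1a3, which encodes the capture antigen GLAST, had 97.4 and 103 CPM in Ezh2 f/f against 303 and 300 in Ezh2 cKO. Its log2 fold change was 1.59 (standard error 0.09, edgeR adjusted p = 2.71e-09). The effect of this difference on which cells were captured was not tested. These 3 genes were named after their values were seen. Summed CPM of the list was 507 and 521 in Ezh2 f/f against 2910 and 2660 in Ezh2 cKO. None of the markers was at 0 in all libraries, but summed FPKM, a level per length, was 94.6 to 503 for the astrocyte markers against 3400 to 3970 for 15 pan-neuron markers, so neuronal transcripts were abundant in every library. In such bulk libraries, fewer cells of a type and less RNA per cell cannot be told apart.

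MHC class I molecules consist of a heavy chain that binds the peptide and the invariant light chain beta-2-microglobulin. Peptides are cut by the proteasome, whose catalytic subunits can be exchanged for inducible ones, carried into the endoplasmic reticulum by the TAP1-TAP2 transporter and loaded with the help of tapasin. Interferons raise many of these genes through IRF and other factors, NF-kappaB acts on some heavy chain promoters, and NLRC5 acts on a shared upstream module. In the brain, class I expression is known from endothelial cells, microglia and neurons, and it has roles in synapse remodelling.

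Promoter sequence is shown for B2m and H2-D1, the members with the largest rise and the highest Ezh2 f/f level, for H2-K1, whose promoter resembles that of H2-D1, and for Tap1, whose upstream bases are shared with Psmb9. Each line gives the 250 bases before the start site from RefSeq (GRCm38.p6), read 5′ to 3′ on the gene's strand. Capitals mark matches, on either strand, to the interferon-stimulated response element (ISRE) core GAAANNGAA, its mirrored form GAANNGAAA, the interferon-gamma activated (GAS) core TTCNNNGAA, the CCAAT box, the cyclic AMP response element (CRE) motif TGACG or the kappaB consensus; in these 4 sequences no GAS core was found. The mirrored form was added after the promoters had been seen, and the kappaB matches of H2-D1 and H2-K1 are 2 overlapping ones.
B2m (chr2:122147437-122147686, plus strand): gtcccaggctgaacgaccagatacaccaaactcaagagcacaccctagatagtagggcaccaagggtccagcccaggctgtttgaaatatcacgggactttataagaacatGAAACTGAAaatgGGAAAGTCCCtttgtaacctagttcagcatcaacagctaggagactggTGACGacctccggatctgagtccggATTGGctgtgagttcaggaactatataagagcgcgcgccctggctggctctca
H2-D1 (chr17:35262844-35263093, plus strand): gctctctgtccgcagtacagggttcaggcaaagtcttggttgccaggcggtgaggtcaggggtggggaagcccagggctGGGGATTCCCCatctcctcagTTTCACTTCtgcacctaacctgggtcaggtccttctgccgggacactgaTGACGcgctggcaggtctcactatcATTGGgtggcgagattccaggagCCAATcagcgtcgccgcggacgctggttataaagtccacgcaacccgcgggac
H2-K1 (chr17:34000334-34000583, minus strand): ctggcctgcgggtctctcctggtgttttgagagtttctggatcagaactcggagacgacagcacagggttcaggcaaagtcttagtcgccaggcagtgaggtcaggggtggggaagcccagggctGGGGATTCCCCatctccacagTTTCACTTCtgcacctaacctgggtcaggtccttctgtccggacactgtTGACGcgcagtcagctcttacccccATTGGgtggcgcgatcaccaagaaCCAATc
Tap1 (chr17:34187306-34187555, plus strand): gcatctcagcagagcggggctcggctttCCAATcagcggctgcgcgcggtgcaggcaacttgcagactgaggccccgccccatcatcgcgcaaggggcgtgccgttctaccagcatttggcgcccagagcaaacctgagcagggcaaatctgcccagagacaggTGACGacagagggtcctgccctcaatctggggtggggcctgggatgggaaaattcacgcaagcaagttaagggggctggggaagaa

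Promoters were found for 8 of the 10 members, all but Tap2 and Nlrc5. Counted over windows that also hold the first 50 transcribed bases, the ISRE core was in 2 members (B2m and H2-T23) and in 8.56% of 32851 promoters of the same length, and its mirrored form in 2 (H2-D1 and H2-K1) and 7.52%. The kappaB consensus was in 3 members (H2-D1, H2-K1 and B2m) and 8.46% of all promoters. The GAS core was in 1 member (Psmb8) and 8.3%, the CRE motif in 5 members and 20.8%, and the CCAAT box in 7 members and 37.4%. H2-D1 and H2-K1 had the same set of matches in the same order. H2-K1 has 2 listed start sites, and the printed sequence belongs to start site 2. The windows of H2-D1 and of H2-K1 start site 1 were 90.4% identical over 228 aligned columns. Tap1 and Psmb9 start 226 bases apart on opposite strands, so the printed Tap1 sequence is also most of the Psmb9 promoter. The CRE motif and the CCAAT box counted for Tap1 and for Psmb9 are the same bases, so these are not separate occurrences.

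The members did not move together. Of the 9 that passed the filter on low counts, 3 were called higher in Ezh2 cKO (B2m, Psmb9 and H2-K1), 3 lower (Tap1, Tapbp and H2-D1), and 3 were not called (H2-T23, Tap2 and Psmb8); Nlrc5 was too low to be tested. These counts stand beside 34.7% higher and 33.6% lower among all genes tested, so the number of calls did not set the members apart. A change of at least 2-fold was called for 2 members as higher, B2m and Psmb9, and for 0 as lower. CPM did not overlap between the groups for 8 of the 9, with H2-T23 the exception, against 84.3% of tested genes. Psmb8 and Psmb9 passed the filter through the Ezh2 cKO libraries alone, which favours a difference. The calls of H2-K1 and Psmb9 were lost with DESeq2 (adjusted p = 0.155 and 0.189).

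**Figure D1:**
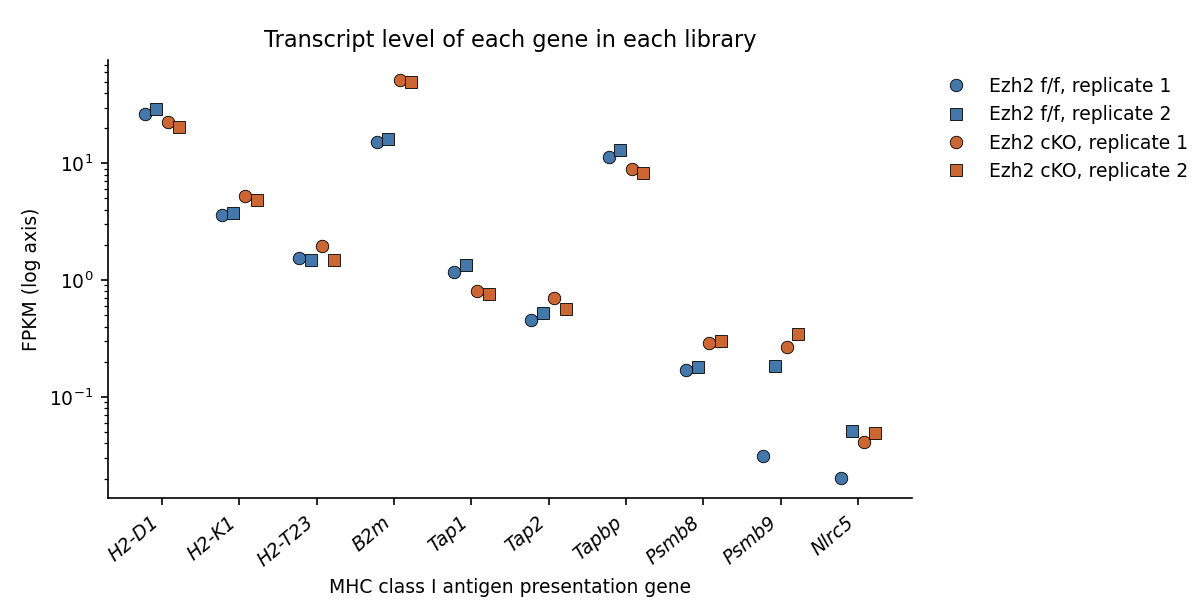
FPKM of each of the 10 genes (log axis) in each library; circles are replicate 1 and squares replicate 2, blue is Ezh2 f/f and orange Ezh2 cKO. B2m sits at 15.2 and 16.1 in Ezh2 f/f against at 51.7 and 49.8 in Ezh2 cKO, while H2-D1, Tap1 and Tapbp are lower in Ezh2 cKO and H2-T23 overlaps.

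B2m (ENSMUSG00000060802, listed on chromosome 2 from 121978167 to 121983564, plus strand) encodes the light chain that pairs with class I heavy chains. It had 229 and 226 counts in Ezh2 f/f against 771 and 715 in Ezh2 cKO. Both Ezh2 cKO libraries were far above both Ezh2 f/f libraries. Its level rose from 13.9 ± 0.689 to 42.5 ± 1.74 CPM (mean ± SD, n = 2 each), a 3.06-fold difference with a log2 fold change of 1.61 (standard error 0.12, edgeR adjusted p = 4.01e-08). By mean FPKM, B2m moved from rank 3475 of all genes in Ezh2 f/f to rank 1079 in Ezh2 cKO. B2m is listed inside Patl2, which is on the opposite strand and had 0 to 3 counts per library.

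Markers of microglia, which express class I strongly, moved with B2m. Of 15 microglia markers, 14 were called higher and 0 lower, with a median log2 fold change of 1.77, no marker was at 0 in all libraries, and Ptprc was the 1 not called; 5 of the 15 passed the filter only through Ezh2 cKO, and 14 were also called higher without the filter. Their summed CPM was 124 and 127 in Ezh2 f/f against 424 and 355 in Ezh2 cKO, a 3.11-fold difference. Single markers differed by 1.76-fold (Ptprc) to 27.7-fold (P2ry12, at 7 and 12 counts in Ezh2 f/f), so the fold of the sum is not shared by its genes. Among the most abundant, Csf1r (a receptor for colony-stimulating factors) had a log2 fold change of 1.47, Fcrls (an Fc receptor-like protein of microglia) 2.55, and the complement genes C1qb and C1qc 0.98 and 0.95. B2m CPM divided by the summed microglia CPM was 0.108 and 0.114 in Ezh2 f/f against 0.103 and 0.116 in Ezh2 cKO, so this ratio overlapped between the groups. B2m CPM over the summed astrocyte CPM was 0.0264 and 0.0276 in Ezh2 f/f against 0.015 and 0.0155 in Ezh2 cKO. Over the summed oligodendrocyte CPM it was 0.154 and 0.145 against 0.0501 and 0.0553. Relative to both of these lists B2m was lower in Ezh2 cKO. Over each remaining list but microglia the ratio was higher in Ezh2 cKO. These ratios depend on the genes that dominate each sum. Single astrocyte markers ran from 0.9-fold (Aldh1l1) to 30.6-fold (S100b), Ezh2 cKO over Ezh2 f/f. Slc1a3 of that list was at 3.01-fold, close to the 3.06-fold of B2m, so a near-equal change was not particular to microglia. The part of microglia in the rise of B2m was not tested.

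Endothelial markers, from another cell type known for class I, were mostly not called. Of 13, 3 were called higher (Flt1, Ly6c1 and Slco1a4) and 1 lower (Cdh5), named after their values were seen. Among all tested genes 34.7% were called higher and 33.6% lower. Slco1a4 passed the filter only through Ezh2 cKO, and without the filter 3 markers were called higher and 0 lower. The median log2 fold change of the 13 was 0.06. Summed CPM of the endothelial markers was 371 and 350 in Ezh2 f/f against 397 and 343 in Ezh2 cKO. Cldn5 (a tight junction protein), Vwf (von Willebrand factor), Tie1 (a receptor tyrosine kinase) and Esam (an adhesion molecule) had log2 fold changes of -0.08, -0.17, -0.26 and 0.21, not called; Tie1 was called lower with DESeq2 size factors (adjusted p = 0.0421) and with either Ezh2 f/f replicate 2 (0.0368) or Ezh2 cKO replicate 1 (0.0456) left out. Vwf was called lower without Ezh2 f/f replicate 2 (adjusted p = 0.028), and Esam higher with limma on log2(FPKM + 1) and log2(FPKM + 0.1) (adjusted p = 0.0409 and 0.0431). The count of endothelial markers called lower was 2 with DESeq2 size factors. It was 0 with DESeq2, no filter, a mean of at least 50 counts, limma in all 3 settings and the replicate block. The call of Cdh5 was thus lost in these fits. B2m CPM over the endothelial sum was 0.0362 and 0.0412 in Ezh2 f/f against 0.11 and 0.12 in Ezh2 cKO, so B2m was higher in Ezh2 cKO relative to these markers. Oligodendrocyte precursor markers were also called higher in 8 of 9 genes and lower in 1, with summed CPM of 314 and 305 against 819 and 767. B2m over that sum was 0.0428 and 0.0471 against 0.0534 and 0.0538. Of 6 perivascular macrophage markers tested, 2 were called higher and 1 lower, the higher calls near the 34.7% of all tested genes. Their summed CPM was 20.9 and 19.8 against 26.3 and 24.3. Oligodendrocyte markers were called higher in 7 of 8 genes and lower in 0, with summed CPM of 87.1 and 99.3 against 872 and 747. Of the 8, 1 passed the filter only through Ezh2 cKO, and 7 were also called higher without the filter. Mural markers were called higher in 4 of 8 and lower in 1, with summed CPM of 236 and 247 against 410 and 361. Pan-neuron markers were called higher in 12 of 15 genes and lower in 2, and B2m over their summed CPM was 0.00158 and 0.00157 against 0.00388 and 0.00368. Neural progenitor and cycling markers were called lower in 7 of 8 and higher in 1. Their summed CPM was 206 and 231 against 96.1 and 91.6, lower in Ezh2 cKO, as were H2-D1, Tap1 and Tapbp. The part of these cells in any member's change was not tested.

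**Figure D2:**
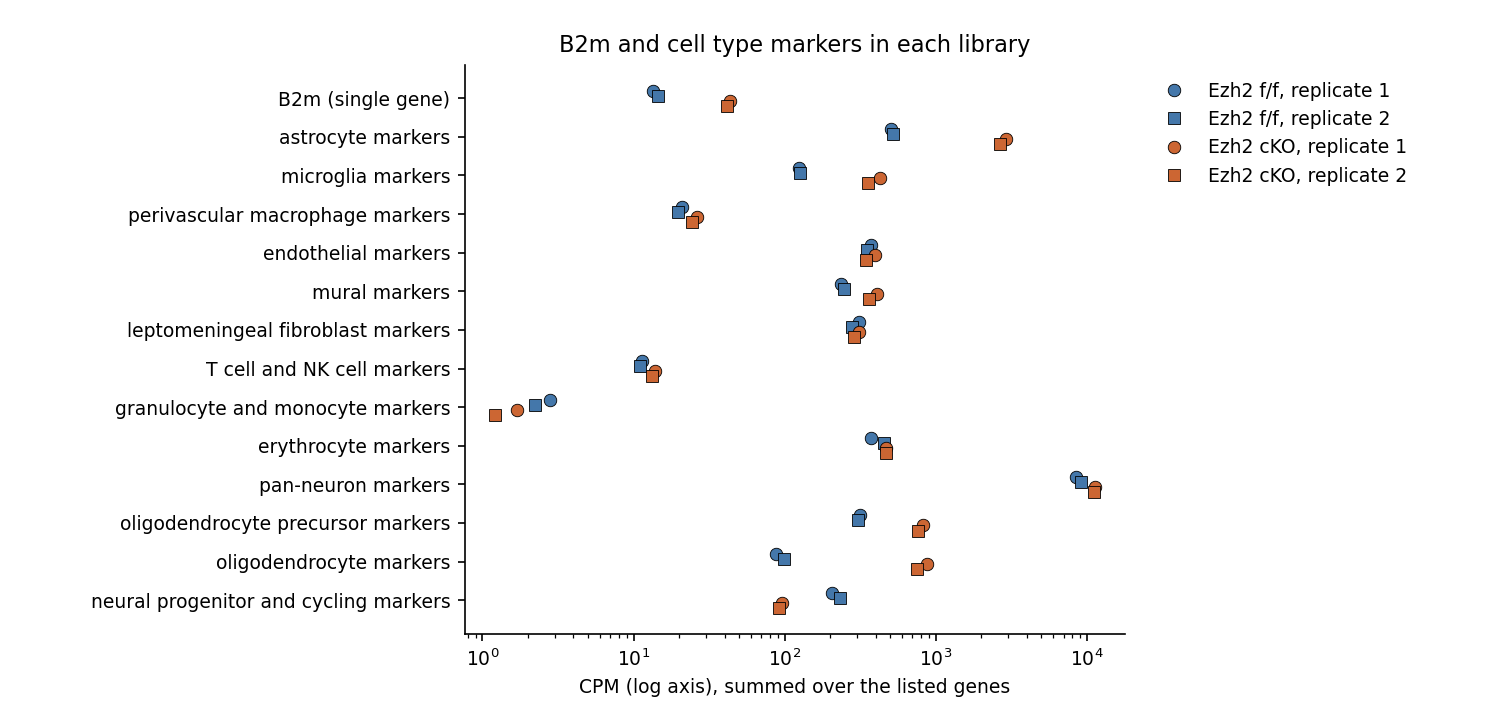
CPM of B2m and summed CPM of each cell type marker list (log axis) in each library; circles are replicate 1 and squares replicate 2, blue is Ezh2 f/f and orange Ezh2 cKO. B2m and the sum of the microglia markers lie about equally far apart between the groups (3.06-fold and 3.11-fold), whereas the endothelial sums overlap. Single microglia markers range from 1.76-fold to 27.7-fold.

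The 3 heavy chains among the members differed from each other: H2-D1 was called lower, H2-K1 higher with a smaller change than B2m, and H2-T23 was not called. H2-D1 (ENSMUSG00000073411, listed on chromosome 17 from 35481706 to 35486475, plus strand), a classical class I heavy chain, had 1197 and 1212 counts in Ezh2 f/f against 1001 and 873 in Ezh2 cKO. Both Ezh2 cKO values were below both Ezh2 f/f values. Its level fell from 73.6 ± 4.98 to 53.6 ± 4.52 CPM (SD, n = 2 each), 1.37-fold, with a log2 fold change of -0.46 (standard error 0.10, edgeR adjusted p = 9.91e-04).

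H2-K1 (ENSMUSG00000061232, chromosome 17, 34214991 to 34219321, minus strand) is the other classical heavy chain measured. It had 186 and 179 counts in Ezh2 f/f against 265 and 238 in Ezh2 cKO. These values did not overlap, and the log2 fold change was 0.37 (standard error 0.15, edgeR adjusted p = 0.045). The call stood close to the threshold, and without any 1 of the 4 libraries the adjusted p was 0.0609 to 0.193. H2-T23 (ENSMUSG00000067212, chromosome 17, 36340665 to 36343747, minus strand) encodes Qa-1, a non-classical chain that is recognised by NK cell receptors. Its 78 and 70 counts in Ezh2 f/f against 98 and 72 in Ezh2 cKO overlapped as CPM, with a log2 fold change of 0.11 (standard error 0.23, edgeR adjusted p = 0.7), which was -0.12 without Ezh2 cKO replicate 1.

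Heavy chain genes are near copies of each other, and reads can be assigned to the wrong one. Of all 50-base stretches in the longest GENCODE M21 transcript of H2-D1, 14.3% were also found in transcripts of other genes, as were 8.11% for H2-K1 and 15% for H2-T23, and 0% for B2m. Which reads the counting assigned to which heavy chain, and the effect of strain differences, were not tested, so the values of single heavy chains are uncertain.

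Within a library, the levels of the members relative to each other changed between the groups. Summed FPKM of the 3 heavy chains was 31.6 and 34.1 in Ezh2 f/f against 29.6 and 26.6 in Ezh2 cKO. B2m FPKM divided by that sum was 0.48 and 0.473 in Ezh2 f/f against 1.75 and 1.87 in Ezh2 cKO. The B2m transcript was thus below the summed heavy chain transcripts in both Ezh2 f/f libraries and above them in both Ezh2 cKO libraries. The share of H2-D1 in the 3 heavy chains was 83.7% and 84.7% in Ezh2 f/f against 75.8% and 76.2% in Ezh2 cKO, and H2-K1 over H2-D1 was 0.136 and 0.13 against 0.232 and 0.239. With 2 libraries per group, an exact two-sided permutation test of such a ratio cannot go below p = 0.333, so these are descriptions.

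**Figure D3:**
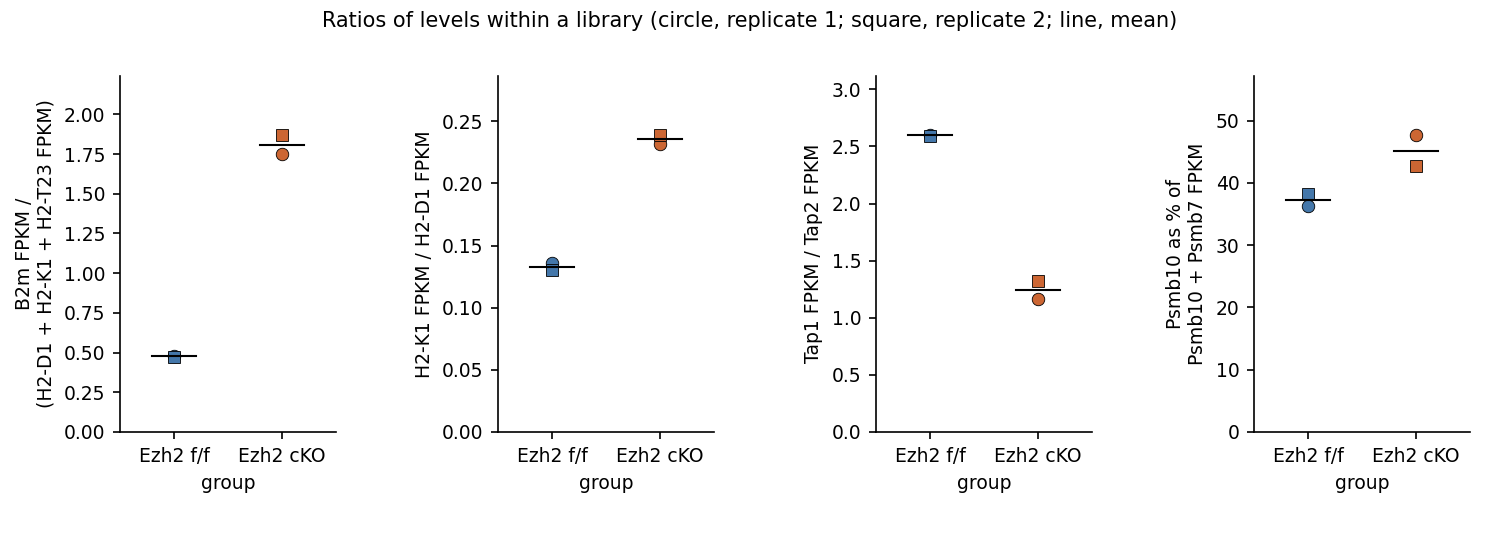
Ratios of FPKM within each library by group, from 0; circles are replicate 1, squares replicate 2 and lines the mean of the 2 libraries. B2m over the 3 heavy chain members is near 0.477 in Ezh2 f/f against 1.81 in Ezh2 cKO, Tap1 over Tap2 near 2.6 and 1.24, and in all 4 panels the groups do not overlap.

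Genes of peptide transport and loading were lower or not called. Tap1 (ENSMUSG00000037321, chromosome 17, 34406527 to 34416199, plus strand), 1 chain of the peptide transporter, had 113 and 120 counts in Ezh2 f/f against 77 and 69 in Ezh2 cKO. Its CPM, 6.62 and 7.64 against 4.37 and 3.98, did not overlap. The log2 fold change was -0.77 (standard error 0.21, edgeR adjusted p = 0.00496), a fall of 1.71-fold. Tap2 (ENSMUSG00000024339, chromosome 17, 34422501 to 34435295, plus strand), the other chain, had only 30 and 32 counts in Ezh2 f/f against 46 and 36 in Ezh2 cKO, and the difference was within the error of the fit (log2 fold change 0.31, standard error 0.31, edgeR adjusted p = 0.386). Tap1 over Tap2 in FPKM was 2.6 and 2.59 in Ezh2 f/f against 1.16 and 1.32 in Ezh2 cKO.

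Tapbp (ENSMUSG00000024308, chromosome 17, 34134873 to 34148266, plus strand) encodes tapasin, which bridges the transporter and the empty class I molecule. It had 716 and 759 counts in Ezh2 f/f against 565 and 497 in Ezh2 cKO, 41.9 and 48.3 against 32.0 and 28.7 CPM, with no overlap. The log2 fold change was -0.57 (standard error 0.11, edgeR adjusted p = 4.51e-04). Tapbp is listed as overlapping Zbtb22 on the same strand over 3422 bases, and Zbtb22, with 1613 and 1473 counts in Ezh2 f/f against 898 and 875 in Ezh2 cKO, also had fewer counts in Ezh2 cKO; the part of reads from the overlap was not tested.

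Psmb8 and Psmb9 had the lowest counts of the tested members. Psmb8 (ENSMUSG00000024338, chromosome 17, 34416695 to 34420428, plus strand), the inducible counterpart of Psmb5, had 10 and 10 counts in Ezh2 f/f against 17 and 17 in Ezh2 cKO (log2 fold change 0.67, standard error 0.44, edgeR adjusted p = 0.196). A change was not detectable at this depth. Psmb9 (ENSMUSG00000096727, chromosome 17, 34400961 to 34406738, minus strand), the inducible counterpart of Psmb6, had 2 and 11 counts in Ezh2 f/f against 17 and 21 in Ezh2 cKO, with a log2 fold change of 1.43 (standard error 0.59, edgeR adjusted p = 0.0445). That value rested on Ezh2 f/f replicate 1, without which it was 0.63 (adjusted p = 0.389), while it was 3.12 (adjusted p = 0.00183) without Ezh2 f/f replicate 2. With Ezh2 cKO replicate 1 or 2 left out it was 1.58 or 1.26, neither called (adjusted p = 0.151 and 0.26). Psmb9 overlaps Tap1 by 212 bases on the opposite strand, and whether the counting used strand is not given in the sources used here.

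Relative to their constitutive counterparts, Psmb8 and Psmb9 were scarce. Psmb8 made up 0.392% and 0.464% of Psmb8 plus Psmb5 FPKM in Ezh2 f/f against 0.717% and 0.709% in Ezh2 cKO. Psmb9 made up 0.0242% and 0.142% of Psmb9 plus Psmb6 in Ezh2 f/f against 0.303% and 0.4% in Ezh2 cKO. The third pair differed from these: Psmb10 was 36.3% and 38.2% of Psmb10 plus Psmb7 in Ezh2 f/f against 47.7% and 42.7% in Ezh2 cKO. Psmb10, an inducible subunit encoded outside the MHC, showed a log2 fold change of 0.33 (standard error 0.12, edgeR adjusted p = 0.0224), which was 0.18 (adjusted p = 0.3) without Ezh2 cKO replicate 1 and was not called without Ezh2 f/f replicate 1 or with DESeq2.

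Nlrc5 (ENSMUSG00000074151, chromosome 8, 95160984 to 95253900, plus strand), the transactivator of class I genes, had 3 and 7 counts in Ezh2 f/f against 6 and 7 in Ezh2 cKO. It lay below the filter on low counts. Fitted without that filter, its log2 fold change was 0.27 (standard error 0.71, edgeR adjusted p = 0.788), and a change was not detectable at this depth.

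Other genes of the pathway were read from lists. Among 31 other class I heavy chain genes, 15 were in the tables. Fitted without the filter on low counts, 5 of the 15 were called higher and 0 lower, beside 5769 and 5590 of all 29224 genes. The median log2 fold change of the 15 was 0.32. With the filter 7 were tested and the same numbers were called, with a median of 1.06, but 3 of the 7 (H2-Q1, H2-T24 and H2-M3) passed only through the Ezh2 cKO libraries, which favours a rise, and 0 only through Ezh2 f/f. H2-Q1 (2.70, from 3 and 2 counts to 24 and 12), H2-T24 (2.23, from 3 and 8 to 26 and 30) and H2-M3 (2.02, from 12 and 8 to 56 and 31) were low; H2-M3 presents formylated peptides. H2-T22 (log2 fold change 0.89), a ligand of gamma-delta T cells, had 123 and 100 counts in Ezh2 f/f against 257 and 185 in Ezh2 cKO, and H2-M5 had 1.06. The H2-T24 value was 1.64 with Ezh2 f/f replicate 1 left out and 3.12 with replicate 2 left out. H2-Q1 and H2-M5 were not called without Ezh2 cKO replicate 1 (2.13 and 0.79, adjusted p = 0.0751 and 0.0588). H2-Q2 and H2-Q4 were not called (0.32 and -0.01).

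Class I-like genes outside the MHC were 5 tested of 7. Of these, 2 were called higher and 1 lower, beside 34.7% and 33.6% of all tested genes. Cd1d1, which presents lipids to NKT cells and also pairs with beta-2-microglobulin, fell from 200 and 158 counts to 29 and 34 (log2 fold change -2.59, standard error 0.23, edgeR adjusted p = 2.10e-07). Fcgrt, the heavy chain of the neonatal Fc receptor and another partner of B2m, rose by a log2 fold change of 0.85 from 309 and 318 counts to 650 and 560. Mr1, which presents vitamin B metabolites, had 1.18, but its call was lost when Ezh2 f/f replicate 1 (0.74) or either of the Ezh2 cKO libraries (1.14 and 1.22) was left out, while Hfe and Procr were not called.

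Other peptide loading and trimming genes were higher or not called. Of 13 tested, 8 were called higher and 0 lower, beside 34.7% and 33.6% of all tested genes. The median log2 fold change of the 13 was 0.32. The general chaperones of the endoplasmic reticulum Canx, Calr and Hspa5 had log2 fold changes of 0.77, 0.54 and 0.38, and the trimming peptidases Erap1 and Lap3 had 1.12 and 1.03. Tapbpl, a relative of tapasin that edits peptides, had 0.85 (standard error 0.23, edgeR adjusted p = 0.00489). Canx went from 126 and 126 CPM to 200 and 229. Erap1 was not called without Ezh2 cKO replicate 2 (1.06) and Tapbpl not without Ezh2 cKO replicate 1 (0.70).

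The constitutive proteasome core moved the other way. Of its 14 genes, 0 were called higher and 7 lower, beside 34.7% and 33.6% of all tested genes. The median log2 fold change of the 14 was -0.23, and 0 were called lower by at least 2-fold. Psma6, an alpha ring subunit, fell by 0.91 on the log2 scale, from 221 and 239 CPM to 122 and 123, and Psmb6, the catalytic subunit that Psmb9 replaces, fell by 0.66. Psma2, Psmb3, Psmb4 and Psma7 had log2 fold changes of -0.52, -0.52, -0.46 and -0.46. Psmb5 (-0.07) and Psmb7 (-0.15) were not called. Of the activator genes, Psme1 showed a log2 fold change of -0.35 (standard error 0.11, edgeR adjusted p = 0.0102), not called when Ezh2 f/f replicate 2 (-0.22) or either of the Ezh2 cKO libraries (-0.31 and -0.38) was left out, and Psme2 had -0.21 (adjusted p = 0.137), called without Ezh2 f/f replicate 1 (-0.34).

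Of 18 regulators that act on class I promoters, 4 were called higher and 7 lower, beside 34.7% and 33.6% of all tested genes, with a median log2 fold change of -0.01. With Ezh2 cKO replicate 1 or 2 left out, 4 were called lower. Ciita, the class II relative of Nlrc5, had 2 and 4 counts in Ezh2 f/f against 29 and 22 in Ezh2 cKO (log2 fold change 2.94, standard error 0.55, edgeR adjusted p = 2.89e-04), passed the filter only through Ezh2 cKO and was at 3.54 without Ezh2 f/f replicate 2. Irf2, which binds the same element as Irf1, went from 61 and 54 counts to 201 and 222 (1.79). Rfxap, a subunit of the RFX complex that binds class I and class II promoters, had -0.77, Rela, an NF-kappaB subunit, -0.72, and Atf1, a CRE-binding factor, -0.61, not called when replicate 1 of Ezh2 f/f (-0.41) or of Ezh2 cKO (-0.53) was left out. Irf1 (-0.02) and Rfx5 (0.28) were not called.

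Of 9 interferon receptor and signalling genes tested, 3 were called higher and 4 lower, beside 34.7% and 33.6% of all tested genes. The kinase Jak1 (0.72) and the receptor chains Ifngr2 (0.42) and Ifngr1 (0.38) were higher. Ifngr1 was named after its value was seen, and its call stood close to the threshold (edgeR adjusted p = 0.043). The feedback inhibitor Socs3 (-1.82), the receptor chain Ifnar1 (-0.62) and the kinases Jak2 (-0.59) and Tyk2 (-0.53) were lower. Of 36 interferon-stimulated genes fitted without the filter, 12 were called higher and 2 lower, beside 5769 and 5590 of all 29224 genes. The median log2 fold change of the 36 was 0.28. The filter left 25, with the same numbers called and a median of 0.75, of which 8 (Igtp, Ifih1, Oasl2 and Gbp7 among them) passed only through Ezh2 cKO and 1 only through Ezh2 f/f; 7 were higher with DESeq2, and 5 and 7 when Ezh2 cKO replicate 1 or 2 was left out. Igtp, an immunity-related GTPase, had 6 and 6 counts in Ezh2 f/f against 39 and 33 in Ezh2 cKO (2.47), and Ifi27 had 74 and 64 against 317 and 273 (2.00). Ifih1, an RNA sensor, had 1.92, Oasl2 1.81 (not called without Ezh2 cKO replicate 1, 1.48) and Gbp7, a guanylate-binding protein, 1.51 (adjusted p = 0.0663 with DESeq2, and not called without either Ezh2 cKO library). Isg20, an exonuclease, went the other way, from 76 and 55 counts to 21 and 13 (-2.03), as did the RNA sensor Ddx58 (-0.80), named after its value was seen.

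MHC class II presentation genes have products known mainly from microglia and other antigen-presenting cells. Without the filter, 6 of 9 were called higher and 0 lower, beside 5769 and 5590 of all 29224 genes. The median log2 fold change of the 9 was 1.19. The filter left 8, with the same numbers called; H2-Aa and H2-DMb1 passed only through Ezh2 cKO. Cd74, the invariant chain, rose from 12 and 10 counts to 80 and 77 (log2 fold change 2.73, standard error 0.32, edgeR adjusted p = 3.80e-06). H2-DMa, a chain of the peptide editor, rose from 114 and 90 to 394 and 377 (1.83), and Ctss, a protease that cuts the invariant chain, from 140 and 129 to 358 and 298 (1.19). The chains H2-Aa (2.63), H2-Ab1 (1.27) and H2-Eb1 (0.97) had at most 49 counts in any library, and without Ezh2 cKO replicate 1 all 3 lost their call (2.21, 1.29 and 1.04), leaving 3 of the list. H2-Ab1 and H2-Eb1 were also not called with DESeq2 (adjusted p = 0.0711 and 0.103) or without Ezh2 cKO replicate 2 (adjusted p = 0.0592 and 0.101), and H2-Aa was at 4.05 with Ezh2 f/f replicate 1 left out and at 1.96 with replicate 2 left out. H2-DMb1 and H2-DMb2 were not called. Microglia markers moved with these genes as with B2m, and their part was not tested.

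**Figure D4:**
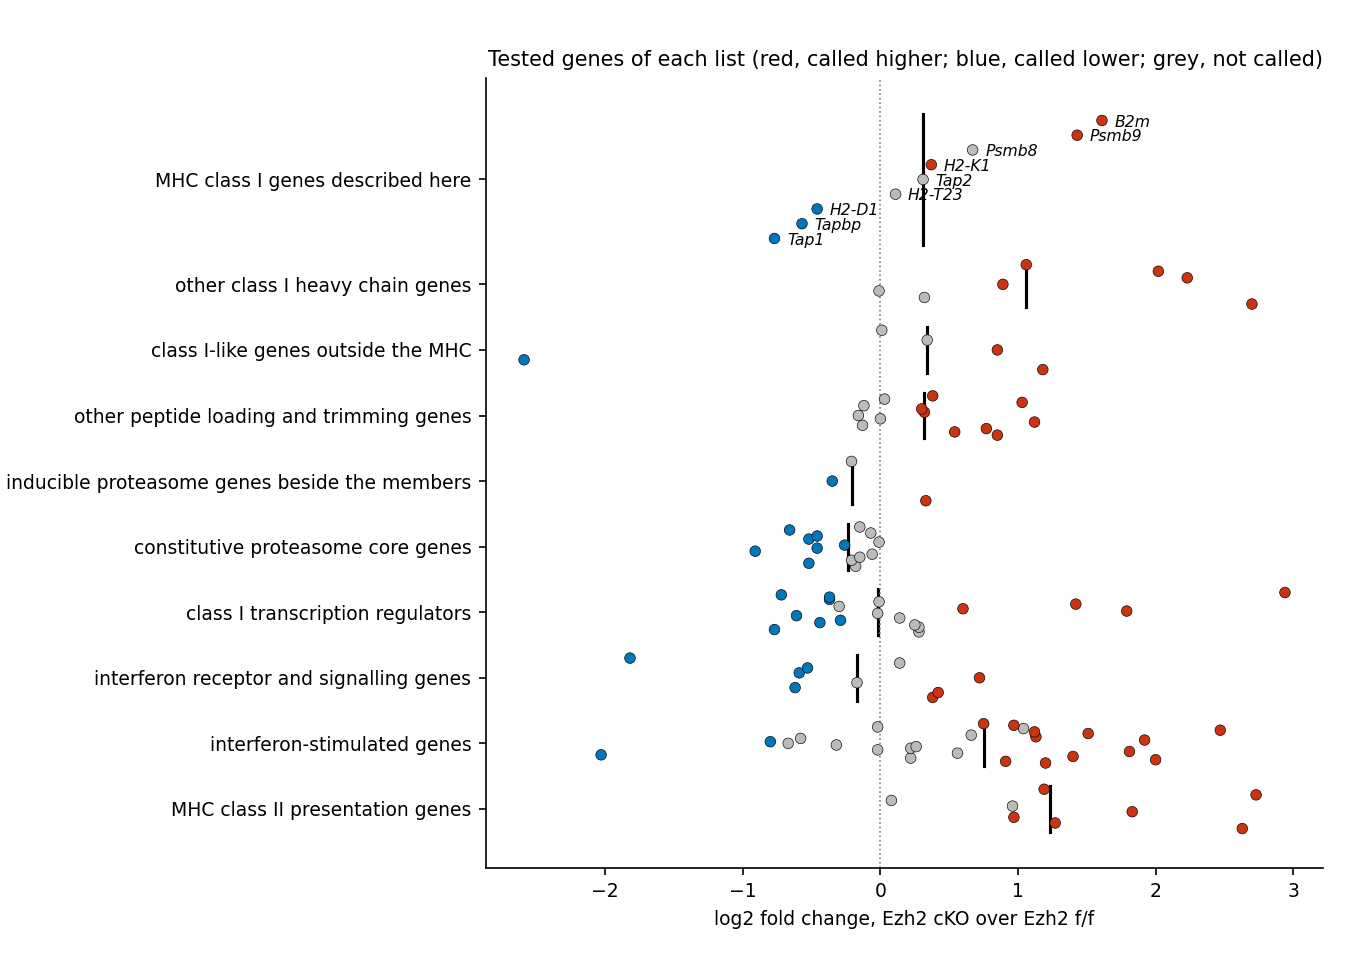
Log2 fold change, Ezh2 cKO over Ezh2 f/f, of each tested gene (1 point each) in the 10 lists, with the median of each list as a black line; red is called higher, blue called lower and grey not called. The members run from -0.77 (Tap1) to 1.61 (B2m), with both directions called among them.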

How the data were processed

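RNA-seq libraries of P5 cortical astrocytes were compared, 2 Ezh2 f/f with 2 Ezh2 cKO. The authors deposited unnormalized read counts for 29224 genes, and FPKM values, which equal the deposited count scaled to gene length and column total. The deposited columns of the authors' own comparison (ratios, log2 ratios and p-values) were not used. The submitters' processing notes list Bowtie2 2.2.3, TopHat2 2.0.12, HTSeq 0.6.0 and mm9 without roles. Gene positions are printed as deposited; they are not those of GRCm38, their build was not established, and promoters come from RefSeq on GRCm38.p6.

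Counts were fitted over all genes with edgeR 4.0.16 (filterByExpr, TMM, quasi-likelihood test, R 4.3.3), leaving 16793 genes, with Benjamini-Hochberg adjustment over all of them and calls at an adjusted p under 0.05. CPM values use TMM-scaled library sizes. Levels of different genes were compared as FPKM. The script was tested on simulated counts. Alternatives used DESeq2 1.42.0, DESeq2 size factors, no filter, or a mean of at least 50 counts. A replicate block, a 2-fold threshold and leaving out each library were further alternatives. Limma 3.58.1 was used on log2(FPKM + 1) or log2(FPKM + 0.1) with a minimum of 1 FPKM in 2 libraries. On log2(FPKM + 1) it was also used without that minimum. The common biological coefficient of variation was 0.0953. Replicates differed beyond sampling noise (chi-square per degree of freedom 8.92 and 5.68).

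All members are named. From each pathway list up to 6 called genes are named by size of change, with Psmb5, Psmb6, Psmb7, Psmb10, Psme1, Psme2, Irf1, Rfx5 and Ciita in any case (1 further gene of this rule is not reported here), and from the microglia and endothelial lists up to 4 by abundance. The members and lists were chosen with earlier results of these data known, and the ratios to marker sums after values had been seen. Overlaps between genes come from the deposited positions.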

Additional observations from a re-analysis of the deposited data

How the results depend on the processing

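B2m, H2-D1 and Tapbp kept their direction and call at an adjusted p under 0.05 in all 12 alternative fits, with log2 fold changes of 1.56 to 1.69, -0.55 to -0.36 and -0.67 to -0.44. Tap1 (-0.87 to -0.34) was not called with limma without a filter (adjusted p = 0.0866). H2-K1 kept its direction (0.30 to 0.44) but lost its call with DESeq2, DESeq2 size factors, no filter, the replicate block and each library left out. Psmb9 kept its direction (0.24 to 3.12) but lost its call with DESeq2, no filter, limma without a filter and 3 of 4 libraries left out. The count of members called higher was 1 with DESeq2 and 1 without a filter, and 1 to 2 with a library left out; the count called lower was 0 at a 2-fold threshold and 3 to 3 with a library left out. Their median log2 fold change was -0.14 at a mean of at least 50 counts, -0.12 with limma on log2(FPKM + 1) and -0.10 on log2(FPKM + 0.1), where 6 members were tested, 0.12 with limma without a filter, and 0.13 to 0.44 with a library left out. Signs turned, never past the threshold, for H2-T23 (-0.12 without Ezh2 cKO replicate 1), Psmb5 (0.01 with limma in all 3 settings), Irf1 (-0.29 to 0.21 with a library left out, 0.02 at a mean of at least 50 counts, 0.03 with limma without a filter) and Cldn5 (-0.21 to 0.04 with a library left out). The median of the regulators was 0.02 at a mean of at least 50 counts, 0.05 with limma without a filter and -0.17 to 0.08 with a library left out (0.04 in 1 case), and that of the endothelial markers -0.05 without Ezh2 cKO replicate 1. These causes were not tested. The labels number the libraries of each group 1 and 2; deviations of same-numbered libraries correlated at 0.13, and 2 pairs do not establish a pairing. With the replicate block, 2 members were called higher and 3 lower, with a median of 0.30. Depth limits Psmb8, Psmb9 and Nlrc5, all at no more than 21 counts in a library.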

Other observations

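Receptors for class I molecules, and the T cell and NK cell markers other than Lck, had few counts. Of 9 receptor genes listed, 5 were in the tables and 0 passed the filter on low counts. Pirb, an inhibitory receptor for class I that is also known from neurons, had 2 and 11 counts in Ezh2 f/f against 9 and 8 in Ezh2 cKO. Cd8b1, a chain of the T cell co-receptor for class I, had 0 and 0 counts against 0 and 1. Cd247, the CD3 zeta chain, had 10 and 12 counts in Ezh2 f/f against 2 and 0 in Ezh2 cKO. These 3 genes were named after their values were seen. Of 7 T cell and NK cell markers in the tables, only Lck was tested, with 10.7 and 10.9 CPM in Ezh2 f/f against 12.9 and 12.9 in Ezh2 cKO, and it was not called (log2 fold change 0.25, edgeR adjusted p = 0.16). Granulocyte and monocyte markers summed to 2.81 and 2.23 CPM in Ezh2 f/f against 1.7 and 1.21 in Ezh2 cKO over 8 genes.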
